A study of Mus musculus with 8 samples.

Results

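Replication initiation sites near 6 genes whose origins of DNA replication were mapped in early mammalian work were examined in CH12 cells, a mouse B lymphoma cell line. The genes were Myc, Lmnb2, Top1, Ada, Aprt and Hbb-b1. A site belonged to a gene when it overlapped the gene model (GENCODE M1, mm9) or the 20 kb on either side of it, called the window here. The windows held 10 of the 39116 sites of the table that sets Rif1KO beside WT, and 25 of the 129937 sites of the table that sets Rif1KO_shMcm6 beside Rif1KO_shLacZ. The rule itself uses no measured value, although earlier results of these data were known when the genes were chosen.

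Sites came from short nascent strand sequencing (SNS-seq), in which RNA-primed DNA strands made just after initiation are size-selected, cleared of broken DNA with lambda exonuclease and sequenced. There were 8 libraries in 4 groups of 2: WT, CH12 cells with intact Rif1; Rif1KO, CH12 cells without Rif1; and Rif1KO_shLacZ and Rif1KO_shMcm6, Rif1 knockout CH12 cells infected with lentiviruses carrying a short hairpin RNA against LacZ, the control, or against Mcm6. Both hairpin groups lacked Rif1, so MCM6 depletion was measured on that background only, and WT cells with a hairpin were not analysed here. The labels describe stimulation with IL4, CD40 and TGF beta, and do not name the Rif1 knockout clone. Replicates came from vials thawed separately. The deposited densities hold 1 pooled value per condition, so no spread between replicates could be computed and no test was made. The intervals below cover counting error only. Densities are RPM: reads of a site per 1000000 reads inside the sites of its table. Each value corresponded to a whole number of reads, 3350255 in WT, 3724571 in Rif1KO, 21071351 in Rif1KO_shLacZ and 23602750 in Rif1KO_shMcm6. Each table has its own scale, and no density was set against one of the other table. Read density over the targeted genes does not check the labels: the Rif1 window changed by 0.09 ± 0.12 on the log2 scale (counting SE) from WT to Rif1KO, and the Mcm6 window by -0.02 ± 0.13 between the hairpins.

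An origin is licensed in G1 when the origin recognition complex and CDT1 load the MCM2-7 helicase, of which MCM6 is a subunit, and it fires in S phase when that helicase is activated. RIF1 brings protein phosphatase 1 to chromatin, counters the kinase that activates MCM and helps to set replication timing. The human lamin B2 origin, near the end of LMNB2 and beside TIMM13, the origin at the MYC promoter and the initiation region of the beta-globin cluster are among the classical mammalian origins, which were mapped with nascent strands, replication intermediates or cloned sequences.

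Some of the sites on which the results turn are shown as 240 bases of the reference sequence at the centre of each (NCBIM37, the assembly also called mm9), read 5′ to 3′. The Myc stretch lies in the densest site of its window in the hairpin table, called the promoter site below. Its label is to be read as upstream of the gene start, within that promoter site. The Lmnb2 stretch lies in the only site inside that gene, and the Top1 stretch in the site nearest to Top1. Capitals mark runs of at least 3 G or at least 3 C.
Myc, upstream of the promoter (chr15:61816435-61816674, plus strand): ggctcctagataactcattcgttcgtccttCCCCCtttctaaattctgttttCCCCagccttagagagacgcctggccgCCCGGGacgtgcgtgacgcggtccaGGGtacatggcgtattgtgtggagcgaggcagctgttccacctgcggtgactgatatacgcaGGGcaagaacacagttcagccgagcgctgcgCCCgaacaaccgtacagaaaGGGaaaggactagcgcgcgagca
Lmnb2, intronic repeat (chr10:80369499-80369738, plus strand): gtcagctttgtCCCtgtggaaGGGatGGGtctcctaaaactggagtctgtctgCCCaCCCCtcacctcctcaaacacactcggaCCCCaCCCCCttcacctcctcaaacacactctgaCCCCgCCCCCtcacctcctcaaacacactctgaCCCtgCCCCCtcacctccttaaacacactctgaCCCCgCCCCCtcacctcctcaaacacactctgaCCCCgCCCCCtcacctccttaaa
Top1, upstream site (chr2:160466430-160466669, plus strand): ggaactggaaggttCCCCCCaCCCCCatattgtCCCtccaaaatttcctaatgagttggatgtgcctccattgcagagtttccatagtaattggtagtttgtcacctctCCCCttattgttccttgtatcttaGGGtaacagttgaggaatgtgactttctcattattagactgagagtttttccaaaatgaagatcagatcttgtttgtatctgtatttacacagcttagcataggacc
The Myc stretch, 511 to 272 bp upstream of the gene start, was 58.3% G or C with 21 CpG dinucleotides. The intronic Lmnb2 stretch held the 16-base word TCACCTCCTCAAACAC 4 times, with starts 33 to 66 bp apart. The Top1 stretch was the least GC-rich of the 3, at 41.2%, with no CpG.

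Myc and Lmnb2 had initiation sites in every condition, Ada in none, and the other 3 genes in some. Lists of called sites, each found in both replicates of a condition, held 9 sites in the 6 windows in WT, 10 in Rif1KO, 23 in Rif1KO_shLacZ and 25 in Rif1KO_shMcm6. The lists themselves were 25828, 33600, 100612 and 115766 sites long, so a count is not comparable across them as such. Myc had 4 called sites in WT, 4 in Rif1KO, 6 in Rif1KO_shLacZ and 7 in Rif1KO_shMcm6. Lmnb2 had 5, 5, 6 and 6 in the same order. Hbb-b1 had none in WT, 1 in Rif1KO, 5 in Rif1KO_shLacZ and 6 in Rif1KO_shMcm6. Top1, with 2 sites, and Aprt, with 4, had called sites in both hairpin lists and in neither of the others, and Ada had none in any list. Thus 2 of 6 genes had a site in WT, 3 in Rif1KO and 5 in each hairpin group. The background shares of all 22380 protein-coding gene windows with a called site were 43.5%, 45.7%, 71.7% and 74.4%.

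**Figure D1:**
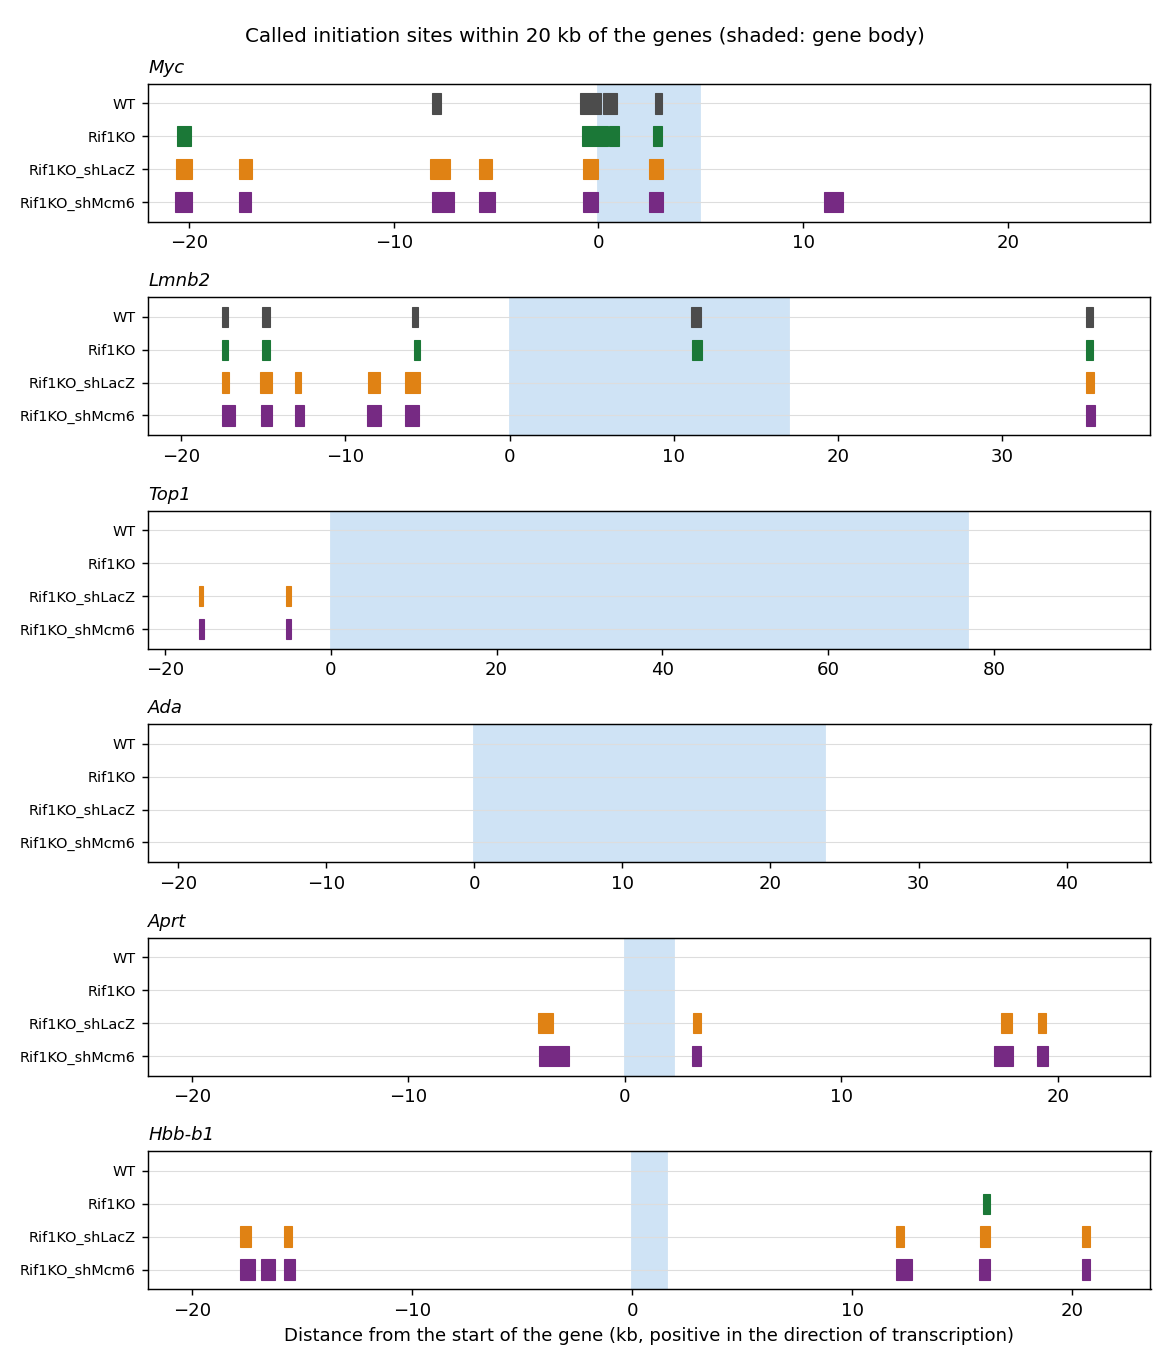
Called sites by distance from the start of each gene (x axis, kb in the direction of transcription) in the 4 conditions (rows); each bar is a called site, drawn to scale with a thin outline, and the shaded block is the gene. The Myc and Lmnb2 windows hold sites in all 4 conditions, Top1 and Aprt in the hairpin conditions only, and Ada in none.

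Myc, which encodes a transcription factor that drives growth and proliferation, had the densest initiation of the 6 loci. Its window (gene at chr15:61816946-61821929, plus strand) carried 1267 reads in WT and 1310 in Rif1KO. These equal 8.41 and 7.82 RPM per kb, and the WT value exceeded that of 99.7% of the gene windows with a site. In the hairpin table the window carried 2686 reads in Rif1KO_shLacZ and 2630 in Rif1KO_shMcm6, at the 99.8th percentile in the control hairpin. Among protein-coding gene windows with a site, the Myc window was thus one of the densest in the control condition of each table.

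Most of this density in WT and Rif1KO lay at the promoter. A site of 1897 bp (chr15:61816040-61817936), which spans the gene start, the first exon and part of the first intron, held 853 reads in WT and 861 in Rif1KO (7.99 and 7.85 log2 RPM). By total RPM it ranked 12 of 39116 sites in both conditions, and per kb of this long site, 101 in WT and 114 in Rif1KO. It contained 67.3% of the window's reads in WT (95% Wilson interval 64.7 to 69.9%) and 65.7% in Rif1KO (63.1 to 68.2%). The site is a union of 2 called sites in each condition: in WT they ran from 906 bp upstream to 138 bp downstream of the gene start and from 205 to 922 bp downstream. In Rif1KO they ran from 796 bp upstream to 467 bp downstream and from 532 to 990 bp downstream. The log2 fold change from WT to Rif1KO was -0.14 (95% counting interval -0.28 to -0.00).

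In the hairpin lists the promoter site stopped short of the gene. It covered 767 bp (chr15:61816172-61816938), ended 8 bp before the gene start, and no called site overlapped the first exon. Reads outside called sites were not available, so nascent strands over the first exon were not measured in the hairpin groups. As the site of the first table covers 1897 bp, the shares of the 2 tables are not like for like. It held 625 reads in Rif1KO_shLacZ and 555 in Rif1KO_shMcm6 (4.89 and 4.56 log2 RPM). Its share of the window was 23.3% (21.7 to 24.9%) and 21.1% (19.6 to 22.7%), with the rest spread over 6 other sites. With a flank of 50 kb these shares were 11.8% and 10.2%. It remained the densest of the window with a log2 fold change of -0.34 with the Mcm6 hairpin (counting interval -0.50 to -0.17). The printed Myc stretch belongs to this site and to the longer site of the other table.

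The other Myc sites moved in different directions. The site within the gene (chr15:61819632-61820072), over coding exon and intron 2906 bp downstream of the start, had 5.77 log2 RPM in WT and 5.80 in Rif1KO. Its counterpart in the hairpin table (chr15:61819406-61820087) had 445 reads in Rif1KO_shLacZ and 340 in Rif1KO_shMcm6, the lowest fold change of any member site there, -0.55 (-0.76 to -0.35). An intergenic site centred 7904 bp upstream (chr15:61808808-61809275) was called in WT only and had 121 reads in WT and 93 in Rif1KO, a log2 fold change of -0.53 (-0.92 to -0.14). The most distal upstream site (chr15:61796343-61797010) was called in Rif1KO only, with 110 reads in WT and 148 in Rif1KO and a fold change of 0.28 whose interval spanned 0 (-0.08 to 0.63). Both had reads in the condition in which they were not called, so a missing call was not an absence of reads. With the Mcm6 hairpin, a site downstream of the gene (chr15:61827963-61828900) was called only there, with 199 reads in Rif1KO_shLacZ and 320 in Rif1KO_shMcm6 (log2 fold change 0.52, 0.27 to 0.78). The remaining hairpin sites, all upstream, ranged in their fold change from -0.43 to -0.03.

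Summed over the window, Myc changed by -0.10 ± 0.06 on the log2 scale (counting SE; interval -0.22 to 0.01) from WT to Rif1KO and by -0.19 ± 0.04 (-0.27 to -0.12) from Rif1KO_shLacZ to Rif1KO_shMcm6. The other sites within 500 kb had median fold changes of 0.06 (53 sites) and -0.10 (117 sites). Set against these medians, the Myc window was at -0.16 and -0.10.

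**Figure D2:**
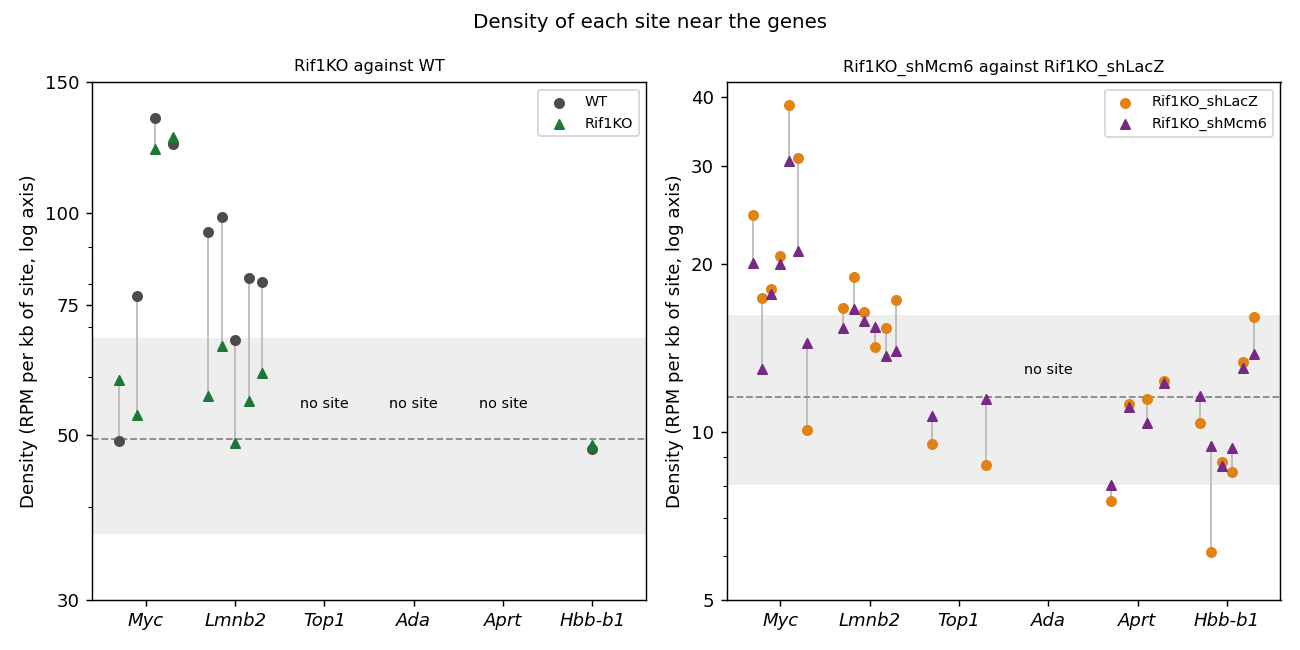
Density of each member site (RPM per kb of site, log axis; left, first table; right, hairpin table), with circles for the control condition, triangles for the other and a line joining the values of a site. The dashed line is the median and the grey band the 10th to 90th percentile of all sites of the table in the control condition; 2 Myc sites lie above 120 RPM per kb in both conditions of the left panel.

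Lmnb2, which encodes the nuclear lamina protein lamin B2, was the locus where all sites had lower density in Rif1KO. The gene lies on the minus strand (chr10:80363948-80380990), with Timm13 after its end, Tmprss9 beyond that, and Gadd45b on the other side. The window held 671 reads in WT and 510 in Rif1KO, and the summed log2 fold change was -0.55 ± 0.08 (-0.71 to -0.38). Of the gene windows with a site, 3.52% had a lower fold change. No site of either table overlapped Timm13 or the gap between Timm13 and Lmnb2.

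The 5 sites of Lmnb2 in this table fell within a narrow range of fold change, from -0.74 to -0.41, and each counting interval excluded 0. The lowest was an intergenic site (chr10:80398145-80398505) beyond Gadd45b, a stress-response gene, with 114 reads in WT and 76 in Rif1KO (5.09 and 4.35 log2 RPM). By total RPM it moved from the 84.1th percentile in WT to the 42.4th in Rif1KO, and per kb from percentile 98.5 to 74.7. It was the only member site of this table past 1.5-fold. The densest site per kb (chr10:80395590-80396061) had 156 and 116 reads, a fold change of -0.58 that lay just inside the 1.5-fold limit of 0.585. The site with the most reads, the intronic repeat printed above and its flanks (chr10:80369277-80369960, coding exon and intron of Lmnb2), had 187 reads in WT and 142 in Rif1KO (5.80 and 5.25 log2 RPM, fold change -0.55). The site between Lmnb2 and Gadd45b (chr10:80386441-80386902) had 104 and 84 reads, and the site in Tmprss9 (chr10:80345453-80345859), a serine protease gene, 110 and 92. No site of the 5 lost its call: all were called in both WT and Rif1KO.

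The surrounding chromosome had lower densities as well. The 54 other sites within 500 kb of the Lmnb2 window had a median log2 fold change of -0.74 (10th to 90th percentile -0.98 to -0.37), and 34 of them were past 1.5-fold lower. Relative to this median the Lmnb2 window was 0.19 higher.

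**Figure D3:**
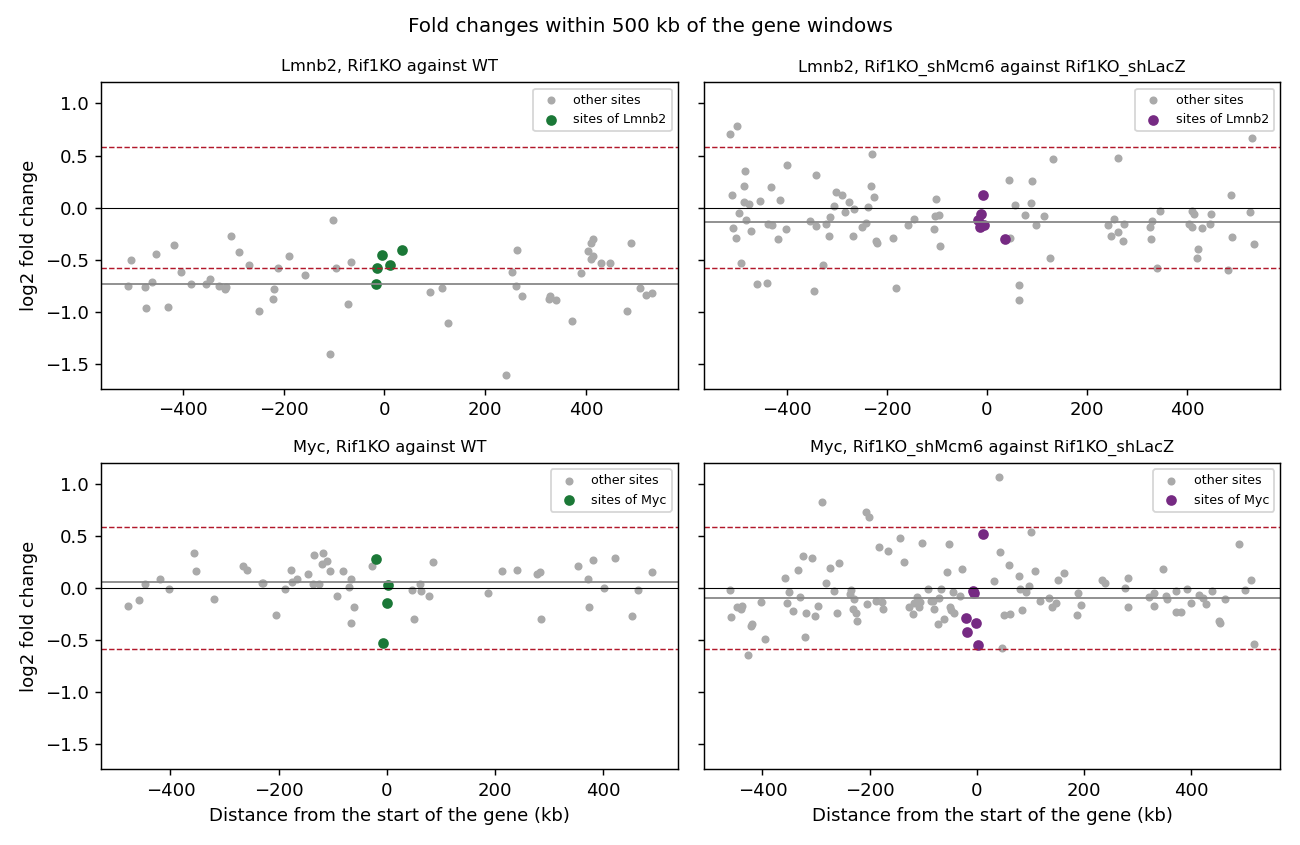
Log2 fold change of each site by distance from the gene start (x axis, kb) over the window and the 500 kb on either side, with member sites of Lmnb2 or Myc coloured and their neighbours grey; the black line is 0, the grey line the neighbour median and the dashed lines 1.5-fold. Around Lmnb2 the sites of the first table lie below 0, with a neighbour median of -0.74, whereas around Myc they scatter about 0.

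Between the hairpins Lmnb2 changed little. The window held 1467 reads in Rif1KO_shLacZ and 1517 in Rif1KO_shMcm6, a log2 fold change of -0.12 ± 0.05 (-0.22 to -0.01) beside a neighbour median of -0.14 (94 sites). The densest site per read and per kb in Rif1KO_shLacZ (chr10:80395445-80396162) had 287 and 282 reads. The highest fold change, 0.12, was at an intergenic site next to Gadd45b (chr10:80388834-80389643), and the lowest, -0.30 (-0.59 to -0.02), at the site in Tmprss9 (chr10:80345316-80345878). A further site overlapped coding exon and intron of Gadd45b (chr10:80393521-80394051) with 184 and 198 reads. The site beyond Gadd45b (chr10:80397734-80398491) had 3.66 and 3.54 log2 RPM, and that between Gadd45b and Lmnb2 (chr10:80386472-80387341) 3.74 and 3.57. The intronic Lmnb2 site had no counterpart in the hairpin table, although the other 4 sites of the first table did.

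Hbb-b1 encodes an adult beta-globin, a gene expressed in red cell precursors, and its window also holds Hbb-b2, Hbb-bh1 and Hbb-bh2. Hbb-b1 and Hbb-b2 are near-identical copies, and reads that aligned to more than one place were left out, so density inside them is uncertain. No site lay inside Hbb-b1 in any list. The single site of the first table (chr7:110960363-110960655), beyond the end of Hbb-b2, was called in Rif1KO only and had 47 reads in WT and 53 in Rif1KO (3.81 and 3.83 log2 RPM). By total RPM it was low in both, at the 9.05th and 8.19th percentile. The site covers only 293 bp, and per kb it was at percentiles 43.8 and 46.3. Its fold change was 0.02 ± 0.29 beside a neighbour median of 0.03 (11 sites).

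The hairpin table had 6 sites there, 3 upstream of Hbb-b1 near the embryonic gene Hbb-bh1 and 3 downstream near Hbb-b2. The window held 734 reads in Rif1KO_shLacZ and 880 in Rif1KO_shMcm6, a fold change of 0.10 ± 0.07 (-0.04 to 0.24) beside a neighbour median of -0.07. The site with the most reads (chr7:110993774-110994460) had 150 and 188 reads. Next to it, an intergenic site (chr7:110992849-110993480) was called in Rif1KO_shMcm6 only, with 81 reads in Rif1KO_shLacZ and 141 in Rif1KO_shMcm6 (1.94 and 2.58 log2 RPM). Its log2 fold change of 0.64 (0.24 to 1.03) was the highest of the 25 member sites and the only one past 1.5-fold. By total RPM it went from the 11.4th to the 39.8th percentile, and per kb from percentile 2.08 to 16.2. By either measure it stayed below the table median in both conditions. A 16-base word occurred up to 23 times in the central 500 bp of this site, and reads with more than one alignment had been left out. The lowest fold change, -0.22 (-0.57 to 0.13), was at the site farthest downstream (chr7:110955776-110956174), which was also the densest per kb in both conditions. The site closest to Hbb-bh1 (chr7:110991929-110992460) had 99 and 109 reads. Of the sites on either side of Hbb-b2, one (chr7:110963891-110964601) had 127 and 157 reads and the other (chr7:110960361-110960865) 142 and 155.

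Top1, which encodes the topoisomerase that relieves DNA supercoiling ahead of forks, had 2 sites, both upstream of the gene (chr2:160471624-160548500) and none in its body. The nearer site (chr2:160466221-160466878) had 121 reads in Rif1KO_shLacZ and 178 in Rif1KO_shMcm6 (log2 fold change 0.39, 0.06 to 0.73). The farther one (chr2:160455765-160456387) had 125 and 157 reads (0.17, -0.17 to 0.50). The window's log2 fold change was 0.28 ± 0.12 (0.04 to 0.52), short of 1.5-fold, beside a neighbour median of -0.09 (48 sites). It was a sparse window: its density exceeded that of only 3.49% of gene windows with a site. In WT and in Rif1KO the closest called site lay 56194 and 56178 bp from the gene.

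Aprt, which encodes the purine salvage enzyme adenine phosphoribosyltransferase, sits between Cdt1, the gene of the licensing factor, and Galns, a lysosomal sulfatase gene. Its 4 sites in the hairpin table lay outside Aprt, and all fell within an overlapping gene model, Gm20388, that spans the region. The window held 676 reads in Rif1KO_shLacZ and 749 in Rif1KO_shMcm6, a fold change of -0.02 ± 0.08 (-0.17 to 0.13) beside a neighbour median of -0.18 (61 sites). Relative to that median the window was 0.16 higher. The site with the most reads and the highest fold change was in an intron of Galns (chr8:125103401-125104809), with 223 and 267 reads (0.10, -0.16 to 0.35). The site between Aprt and Cdt1 (chr8:125097284-125097727) had 105 and 116 reads. The lowest fold change, -0.14 (-0.42 to 0.13), was at chr8:125082890-125083779, and the densest per kb was chr8:125081262-125081773, with 133 and 148 reads. Every interval at Aprt spanned 0.

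Ada, the gene of adenosine deaminase, whose loss causes severe combined immunodeficiency, had no site in its window in any list. The nearest called site lay 107002 bp from the gene in WT, 320286 bp in Rif1KO, 139453 bp in Rif1KO_shLacZ and 80851 bp in Rif1KO_shMcm6. The tables hold reads only at called, clustered sites, so nascent strands at Ada below the calling limit were not measured.

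Counted over all members, few sites passed 1.5-fold. From WT to Rif1KO 1 of 10 sites passed it lower and none higher, whereas 2.7% and 2.27% of all sites did so. From Rif1KO_shLacZ to Rif1KO_shMcm6 none passed it lower and 1 of 25 higher, beside 1.51% and 4.8% of all sites. That 1 site was called in Rif1KO_shMcm6 only, and none of the member sites called in both hairpin conditions passed it. No gene window passed 1.5-fold in either contrast. Of all gene windows with a site, 2.75% were past it lower and 0.552% higher in the first contrast, and 0.204% and 0.545% in the second. The median log2 fold change was -0.44 over the 10 sites (0.02 over the whole table) and -0.04 over the 25 sites (-0.01 over the whole table). Of the 10 sites, 5 came from the Lmnb2 window, whose neighbours had a median of -0.74.

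Counting intervals excluded 0 more often than the 1.5-fold limit was passed. In the first contrast they excluded 0 at 7 of 10 member sites, all lower (5 of Lmnb2 and 2 of Myc), where 5.93% of all sites were lower and 5.15% higher by this rule. In the second they did so at 5 of 25 sites lower (4 of Myc and 1 of Lmnb2) and at 3 higher (1 each of Myc, Top1 and Hbb-b1), where 12% of all sites were lower and 13.2% higher. A site called in one condition only enters the table through that condition: of the 3 higher sites, those of Myc and Hbb-b1 were called in Rif1KO_shMcm6 only, and 1 of the 2 lower Myc sites of the first contrast was called in WT only. An interval also excludes 0 more easily at sites with more reads. In the first contrast Myc sites held 93 to 861 reads and Lmnb2 sites 76 to 187, beside table medians of 73 and 82. Myc hairpin sites held 190 to 625, beside 141 and 160. The shares over all sites are therefore not like for like. The interval of the Myc promoter site in the first contrast ended at -0.003, just below 0. These intervals leave out the variation between cultures, and sites of a window share libraries and neighbourhood, so they are not separate replicates.

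**Figure D4:**
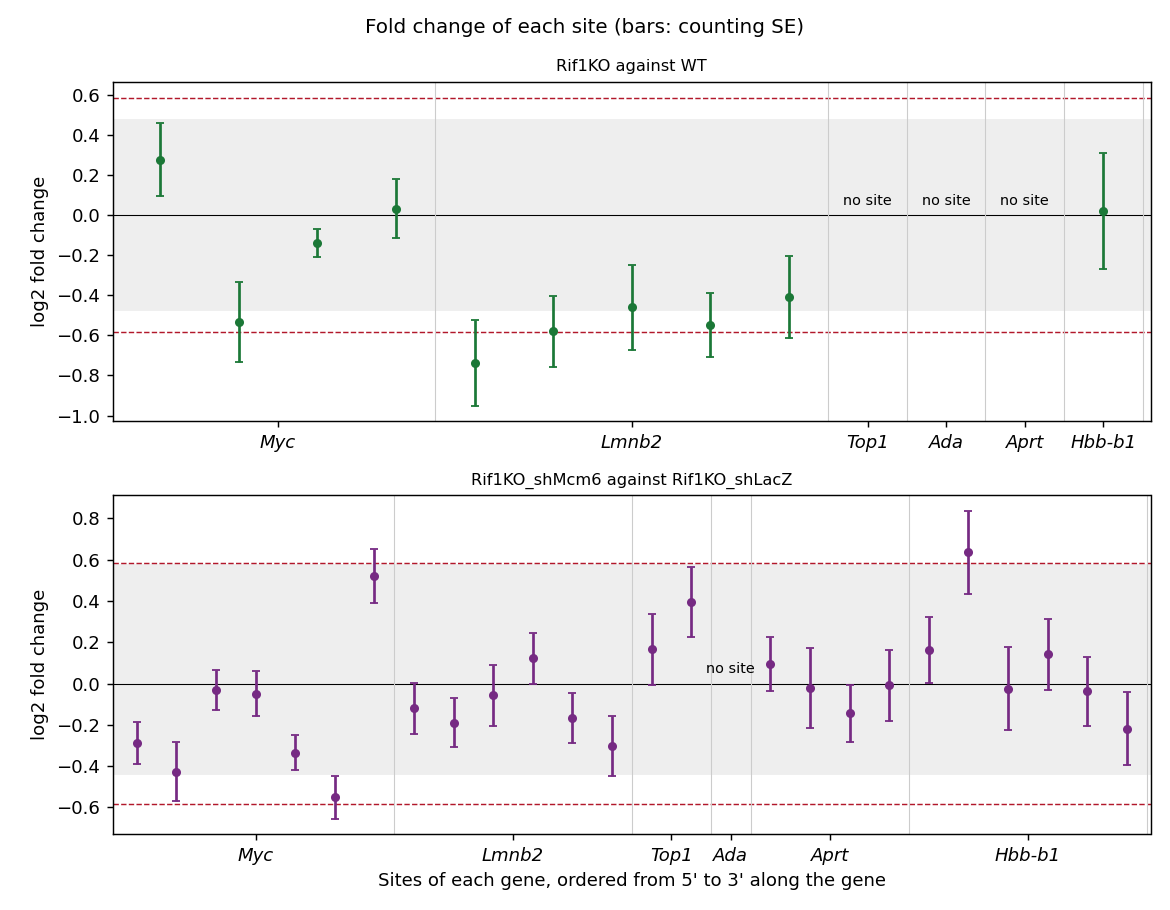
Log2 fold change of each member site (points) with its counting SE (bars), by gene, for both contrasts; the solid line is 0, dashed lines are 1.5-fold and the grey band is the 5th to 95th percentile of all sites. The 5 Lmnb2 sites of the first contrast lie between -0.74 and -0.41, and the highest point of the second is the Hbb-b1 site called in Rif1KO_shMcm6 only, at 0.64.

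Of the 10 member sites of the first table, 9 (90%) overlapped a site of the hairpin table, and 9 of the 25 (36%) did so in the other direction, where 83.5% and 24.8% of all sites of these tables did. The hairpin counterpart of the Myc promoter site ranked 347 of 129937 sites by total RPM in Rif1KO_shLacZ and 874 in Rif1KO_shMcm6. Per kb it ranked 61 and 119. The tables differ in the number and the extent of their sites, so their ranks cannot be ordered against each other. By total RPM the Lmnb2 site beyond Gadd45b was at percentile 84.1 in WT and 42.4 in Rif1KO of the first table. Its counterpart was at 89.8 in Rif1KO_shLacZ and 87.2 in Rif1KO_shMcm6 of the other. The site covers 361 bp in the first table and 758 bp in the other, and these percentiles cannot be ordered across the tables either.

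The median GC content of the member sites was 55.6% in the first table (46.9% over all sites) and 49.0% in the second (44.4%). Of the members, 3 of 10 and 4 of 25 lay within 1 kb of a transcription start, beside 6.36% and 4.42% of all sites, and sites so placed had median GC contents of 58.2% and 54.0%. The range was wide, from 31.7% at the Hbb-b1 site of the first table to 61.7% at the site within Myc. A motif of 4 runs of at least 3 G with loops of 1 to 7 bases, on either strand of the central 500 bp, was found at 8 of 10 and 11 of 25 member sites, against 74.3% and 50.7% of all sites. Sequence repeats marked the globin window: 4 of its 6 hairpin-table sites had a 16-base word at least 4 times, a feature of 19.95% of all sites of that table. Besides these, 1 Top1 site of the hairpin table had such a word. Of the 10 member sites of the first table, 3 had one, 1 each of Myc, Lmnb2 and Hbb-b1, beside 17.1% of all sites.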

How the data were processed

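SNS-seq was measured in 8 CH12 libraries, 2 in each of 4 conditions. The authors trimmed reads with Trim Galore 0.6.4 and cutadapt 2.6, aligned them uniquely to mm9 with Bowtie 1.2.3 and called peaks in each replicate without an input library. They kept the peaks shared by both replicates, dropped peaks outside clusters, merged the sites of a pair of conditions and deposited log2 RPM values, 1 pooled value per condition, in 2 tables, together with 4 lists of called sites. Unique alignment leaves repeats undercounted, and the cluster step removes isolated sites. A column with the authors' own fold-change category was not used.

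Here the log2 values were turned back to RPM. In all 4 columns 100% of values were whole multiples of 1 read within 0.01 read. Window fold changes compare summed RPM. Counting errors treat reads as Poisson, intervals are at 95% (Wilson for shares), and PCR duplicates are not independent molecules. Depth gave medians of 73 and 82 reads per site in the first table and 141 and 160 in the second. As the files hold no replicate values, no test was run; the design had foreseen one only with such values. Every site of each window was described, and in each window the densest and those of extreme fold change are given with coordinates. Some loci and sequences are not reported here. The genes and lists were chosen with earlier results of these data known. Python 3.11.15, NumPy 2.4.6, pandas 2.3.3 and SciPy 1.17.1 were used, and the fold-change code was tested on simulated data. Alternatives covered the flank, site selection, combination rule, pseudocount, centring, threshold and joining of sites.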

Additional observations from a re-analysis of the deposited data

How the results depend on the processing

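Of 111 alternative values over 28 results, 75 moved by less than their counting error or 1.5 times and 36 by more. The sign changed in 5, none of them a value past 1.5-fold. Centred on neighbours within 500 kb, the log2 fold change of Lmnb2 became 0.19 from WT to Rif1KO, and between the hairpins Myc became -0.10, Lmnb2 0.022 and Aprt 0.16. The Hbb-b1 value turned to -0.01 on the same centring from WT to Rif1KO, and to -0.02 with a flank of 50 kb between the hairpins. Between the hairpins Myc was -0.55 in the gene body only, -0.29 as the median of its sites and -0.27 as the median on log2(RPM + 1). From WT to Rif1KO the 1 member site past 1.5-fold became 0 at 2-fold, 6 at a ratio of 5 to 4, 2 after centring on the table median and 0 in gene bodies only. Between the hairpins the 1 site became 0 at 2-fold, 6 at a ratio of 5 to 4, 0 in gene bodies only, 4 with a flank of 50 kb and 0 among sites called in both conditions. That flank held 47 and 55 called sites in Rif1KO_shLacZ and Rif1KO_shMcm6, beside 23 and 25 with 20 kb. Of all sites, 1.51% passed 1.5-fold lower and 4.8% higher. At a ratio of 5 to 4, 24.1% and 25.6% of all sites passed in the 2 contrasts. Called sites in gene bodies only numbered 4 in WT, 4 in Rif1KO, 1 in Rif1KO_shLacZ and 1 in Rif1KO_shMcm6. With a flank of 50 kb the share of reads in the densest site was lower in 12 of 14 cases, at Myc in WT 50.1% and in Rif1KO_shLacZ 11.8%, and at Lmnb2 it did not move in WT or Rif1KO. When sites under 1 kb apart were joined, the Hbb-b1 share rose from 20.4% to 45.0% in Rif1KO_shLacZ. In Rif1KO_shMcm6 it rose from 21.4% to 49.8%. Depth limits the Hbb-b1 site of the first table most, at 47 reads. No paired analysis was possible because densities were deposited pooled over the replicates; for the same reason leaving out a replicate and the count tests were not run.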

Other observations

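A further 7 genes with origins mapped in earlier mammalian work (Hprt, G6pdx, Mcm4, Fmr1, Dnmt1, Ampd2 and Gnai3) were measured by the same window rule. From WT to Rif1KO 2 of the 7 had sites, 3 in all, with a median log2 fold change of 0.41 and none past 1.5-fold, where 52.7% of gene windows had a site and 2.7% and 2.27% of all sites were past it lower and higher. The higher window was Mcm4, a subunit gene of the MCM helicase, with 123 reads in WT and 182 in Rif1KO (0.41, 95% counting interval 0.08 to 0.74), beside a median of 0.31 for its neighbours. Between the hairpins 5 of the 7 had sites, 17 in all, with a median of -0.10 and none past 1.5-fold, where 78.7% of gene windows had a site and 1.51% and 4.8% of all sites were past it lower and higher. Gnai3 had the most reads there, 1254 in Rif1KO_shLacZ and 1402 in Rif1KO_shMcm6, with a fold change of -0.00 ± 0.06. The median GC content of these sites was 49.1% in the first table and 48.6% in the second. The X-linked Hprt and Fmr1 windows had no site in either table.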
